A study of Caenorhabditis elegans with 12 samples.

Results

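Before a cell can copy its DNA, each origin of replication has to be licensed. The origin recognition complex, of which ORC-2 is a subunit, binds the origin, and CDC-6 and CDT-1 help it to load the MCM helicase, a ring built of MCM-2 to MCM-7. The loaded helicase later unwinds the DNA, and the sliding clamp PCN-1 (PCNA) then holds the DNA polymerases on the template. In C. elegans most cell divisions of the embryo take place in its early stages, and genes of this machinery are known for high transcript levels where cells divide. The 10 genes described here, mcm-2, mcm-3, mcm-4, mcm-5, mcm-6, mcm-7, orc-2, cdc-6, cdt-1 and pcn-1, were chosen by name from the 45410 rows of the count files.

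The libraries were made from whole C. elegans eggs, kept for 4 h at 20°C after the second bleaching of synchronized young adults, when most eggs were near the comma stage of mid-embryogenesis. The mutant strains carry alleles of set-2, the gene of a methyltransferase of histone H3K4: set-2(tm1630), a deletion at the 5′ end that takes the start codon, and set-2(zr2012), a CRISPR-made allele that replaces an amino acid of the SET domain. Each was set against wild-type N2 of its own experiment, experiment 1 for set-2(tm1630) and experiment 2 for set-2(zr2012), with 3 libraries in each of the 4 groups. Each library is a pool of many embryos of 1 strain, so that its value is a mean over all cells and over any spread of stages, and in such bulk samples a change in the share of dividing cells and a change in RNA per cell cannot be told apart.

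Libraries held 14651380 to 53080992 counts. The targeted gene did not check the labels: set-2 had 116, 12 and 97 counts in libraries labelled set-2(tm1630), against 1, 11 and 44 in N2 of experiment 1, and 12, 13 and 10 in those labelled set-2(zr2012), against 9, 13 and 17 in N2 of experiment 2. Only the row named set-2 was read, and rows named by a RefSeq transcript were not searched for this gene. Its few reads may be a part of the gene's reads, so they do not give the level of set-2. The directions given here rest on the labels as deposited. 1 library stood apart: N2 replicate 3 of experiment 2 correlated at 0.953 and 0.955 with its fellow N2 libraries over log2 CPM (counts normalized to library size with edgeR's TMM factors), while these correlated at 0.998 with each other. In experiment 1 libraries labelled set-2(tm1630) correlated at 0.985 to 0.995 with each other, and the N2 libraries at 0.896 to 0.937. Results from experiment 2 are given with N2 replicate 3 and, for the 10 genes and the numbers called in each gene list, also without it.

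The rows named mcm-2 and mcm-6 were at 0 in all 12 libraries. Reads of these genes stood in rows named by a RefSeq transcript, with 32422 reads in total for mcm-2 and 8771 for mcm-6, and these rows were used for them. RefSeq lists 1 transcript for mcm-2 and 2 for mcm-6, of which 1 had a row, so the mcm-6 row may hold part of that gene's reads. The other 8 genes had counts under their own symbol. All 10 rows passed the count filter in both comparisons, and no library held fewer than 58 reads in any of them. Levels are not compared between genes, since no transcript lengths were used.

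All 10 genes were higher in libraries labelled set-2(tm1630) than in N2. Among the 8 rows under their own symbol, 8 of 8 passed edgeR's quasi-likelihood test at an adjusted p under 0.05, all of them upward, as did both transcript rows. Of all 16332 genes tested, 14.4% were called higher and 16% lower. For each of the 10 genes all 3 mutant libraries lay above all 3 N2 libraries, which was so for 25.8% of genes tested. Their median log2 fold change was 2.99 over the 8 rows and 3.13 over the 10, against -0.21 over all genes tested.

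**Figure D1:**
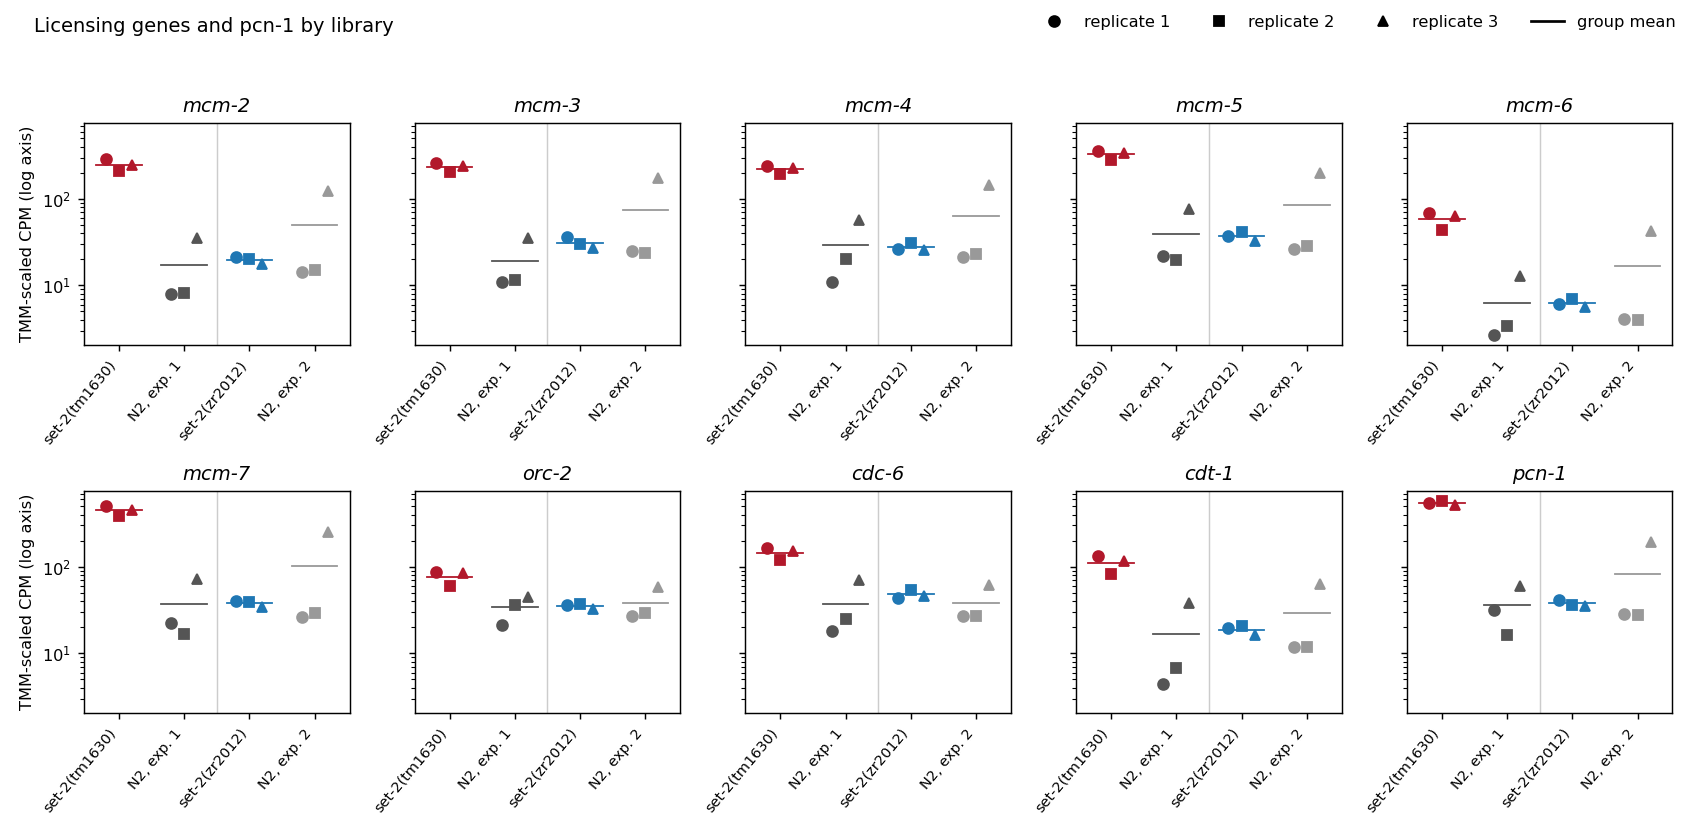
TMM-scaled CPM (log axis) of each gene in each of the 12 libraries, with replicates as symbols and group means as lines; libraries were scaled within each experiment. All 3 set-2(tm1630) libraries lie above all N2 libraries of experiment 1 in every panel, and the triangle of N2 in experiment 2 (replicate 3) lies above every set-2(zr2012) library.

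The subunits of the MCM ring changed by similar amounts. mcm-2 had 286, 211 and 249 CPM in libraries labelled set-2(tm1630), against 7.97, 8.08 and 35.8 CPM in N2. Its lowest mutant library was thus well above its highest N2 library, which was replicate 3. The transcript row of mcm-2 rose 14.4-fold, with a log2 fold change of 3.85 ± 0.66 (SE) and an adjusted p of 0.00809 (edgeR quasi-likelihood, Benjamini-Hochberg).

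mcm-3 had 258, 204 and 237 CPM in libraries labelled set-2(tm1630) and 10.9, 11.6 and 35.3 CPM in N2. The gap between the groups was again wide, and mcm-3 rose 12.1-fold (log2 3.60 ± 0.53, adjusted p = 0.00544, edgeR). mcm-4 had 241, 196 and 227 CPM in mutant libraries and 11.08, 20.0 and 56.4 CPM in N2. N2 replicate 3 was again the highest control, and the change was the smallest of the ring with all 6 libraries, 7.59-fold (log2 2.92 ± 0.59, adjusted p = 0.0122, edgeR).

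mcm-5 had 361, 284 and 337 CPM in libraries labelled set-2(tm1630) and 21.8, 19.5 and 76.9 CPM in N2, a rise of 8.31-fold (log2 3.05 ± 0.58, adjusted p = 0.0104, edgeR). The transcript row of mcm-6 had 68.2, 44.2 and 62.7 CPM in mutant libraries and 2.66, 3.36 and 12.9 CPM in N2. The groups did not overlap for either gene, and mcm-6 rose 9.19-fold (log2 3.20 ± 0.63, adjusted p = 0.0115, edgeR). mcm-7 had 504, 388 and 448 CPM in mutant libraries, against 22.1, 16.8 and 71.8 CPM in N2, and rose 12.1-fold (log2 3.60 ± 0.60, adjusted p = 0.00767, edgeR). For all subunits of the ring, mutant replicate 1 was the highest library and N2 replicate 3 the highest control.

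The loading factors rose less evenly. orc-2 had 86.7, 60.3 and 84.6 CPM in libraries labelled set-2(tm1630) and 21.0, 36.3 and 44.7 CPM in N2. The groups were separate but close, and orc-2 had the smallest change of the 10 genes, 2.27-fold (log2 1.18 ± 0.35, adjusted p = 0.0373, edgeR). cdc-6, the ATPase that joins ORC at the origin, had 165, 120.2 and 152 CPM in mutant libraries and 18.2, 24.7 and 70.0 CPM in N2. N2 replicate 3 was far above the other N2 libraries for cdc-6, which rose 3.87-fold (log2 1.95 ± 0.52, adjusted p = 0.0262, edgeR). cdt-1, whose product brings the helicase to the origin, had 134, 82.5 and 116 CPM in mutant libraries, against 4.396, 6.85 and 38.6 CPM in N2. The N2 libraries of cdt-1 spread more, relative to their mean, than those of any other of the 10 genes, and cdt-1 rose 6.67-fold (log2 2.74 ± 0.78, adjusted p = 0.0331, edgeR).

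pcn-1 had the largest change of the 10 genes in the fit of all 6 libraries, though mcm-2 exceeded it without N2 replicate 3 (log2 4.95 against 4.52), without mutant replicate 2 (4.01 against 3.93) and with a replicate block (4.24 against 4.13). pcn-1 had 543, 580.4 and 518 CPM in libraries labelled set-2(tm1630) and 31.3, 16.3 and 60.0 CPM in N2. The mutant libraries were close to each other and all far above N2, and pcn-1 rose 15.3-fold (log2 3.93 ± 0.53, adjusted p = 0.00424, edgeR).

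With each library of experiment 1 left out in turn, mcm-2 to mcm-7 and pcn-1 passed the test in 6 of 6 fits. orc-2 passed in 2 of 6, cdc-6 in 2 of 6 and cdt-1 in 1 of 6, and their adjusted p ranged up to 0.125, 0.0886 and 0.0987 (edgeR). Of the 8 symbol rows, 5 passed with any 1 of the 3 mutant libraries or N2 replicate 2 left out. Without N2 replicate 1, 7 passed, and without N2 replicate 3, 8 passed. Of the 15741 to 16030 genes tested in these fits, 607 to 713 were called higher without a mutant library. The number was 1548 without N2 replicate 2, 2437 without N2 replicate 1 and 3703 without N2 replicate 3. Without N2 replicate 3, which had the highest N2 level of each gene, the median log2 fold change of the 8 rows was 4.14. The log2 fold change was then 4.95 for mcm-2, 4.37 for mcm-3, 3.83 for mcm-4, 3.98 for mcm-5, 4.27 for mcm-6 and 4.52 for mcm-7. It was 1.43 for orc-2, 2.76 for cdc-6, 4.29 for cdt-1 and 4.52 for pcn-1.

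In libraries labelled set-2(zr2012) none of the 10 genes passed the test. The count was 0 of 8 symbol rows and 0 of 10 with the transcript rows, by edgeR and by the DESeq2 Wald test, which gave no adjusted p for mcm-2, mcm-6 and mcm-7, and 0 of 10 had an unadjusted p under 0.05 in edgeR, as 30.4% of genes tested did. Of all 16892 genes tested, 5.71% were called higher and 4.74% lower. The mutant and N2 libraries overlapped for all 10 genes, since N2 replicate 3 lay above every mutant library and N2 replicates 1 and 2 lay below every one. Over all genes tested, 18.9% had all 3 mutant libraries above and 18.1% below all N2 libraries.

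mcm-2 had 21.5, 20.2 and 17.5 CPM in libraries labelled set-2(zr2012) and 14.1, 15.2 and 122 CPM in N2. mcm-3 had 36.03, 29.9 and 26.7 CPM in mutant libraries and 25.2, 23.7 and 177 CPM in N2. For both genes the mutant libraries fell between N2 replicates 1 and 2 on one side and N2 replicate 3 on the other. mcm-4 had 26.4, 30.9 and 25.8 CPM in mutant libraries and 21.2, 23.4 and 144 CPM in N2. mcm-5 had 36.8, 41.2 and 32.9 CPM in mutant libraries and 26.3, 28.5 and 199.9 CPM in N2. The same order held for these subunits. mcm-6, in its transcript row, had 6.05, 6.92 and 5.68 CPM in mutant libraries and 4.06, 3.95 and 42.3 CPM in N2. mcm-7 had 40.2, 38.9 and 34.6 CPM in mutant libraries and 26.1, 29.4 and 250.1 CPM in N2. mcm-6 had the largest distance between N2 replicate 3 and the other N2 libraries, 10.6 times their mean.

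Of the loading factors, orc-2 had 36.1, 37.6 and 32.7 CPM in libraries labelled set-2(zr2012) and 26.7, 28.9 and 58.3 CPM in N2. cdc-6 had 43.9, 53.63 and 46.1 CPM in mutant libraries and 26.97, 26.92 and 61.9 CPM in N2. These genes had the smallest distance between N2 replicate 3 and the other N2 libraries, 2.10 times their mean for orc-2 and 2.30 times for cdc-6. cdt-1 had 19.6, 20.8 and 16.1 CPM in mutant libraries and 11.7, 11.99 and 63.7 CPM in N2. The clamp gene pcn-1 had 41.3, 36.3 and 35.6 CPM in mutant libraries and 28.2, 28.01 and 193 CPM in N2. Both again had N2 replicate 3 several times above all other libraries of the experiment.

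Fitted over all 6 libraries, the log2 fold changes of the MCM genes in libraries labelled set-2(zr2012) lay between -1.44 for mcm-6 and -1.19 for mcm-4. The values were -0.10 for orc-2, 0.31 for cdc-6, -0.64 for cdt-1 and -1.14 for pcn-1. Adjusted p ranged from 0.306 to 0.843 (edgeR). The 95% intervals were wide: that of mcm-3 ran from -3.18 to 0.61, that of pcn-1 from -2.97 to 0.69 and that of orc-2 from -0.83 to 0.63. With N2 replicate 3 in the fit, these libraries thus did not resolve a change of 4-fold downward from no change for the MCM genes.

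**Figure D2:**
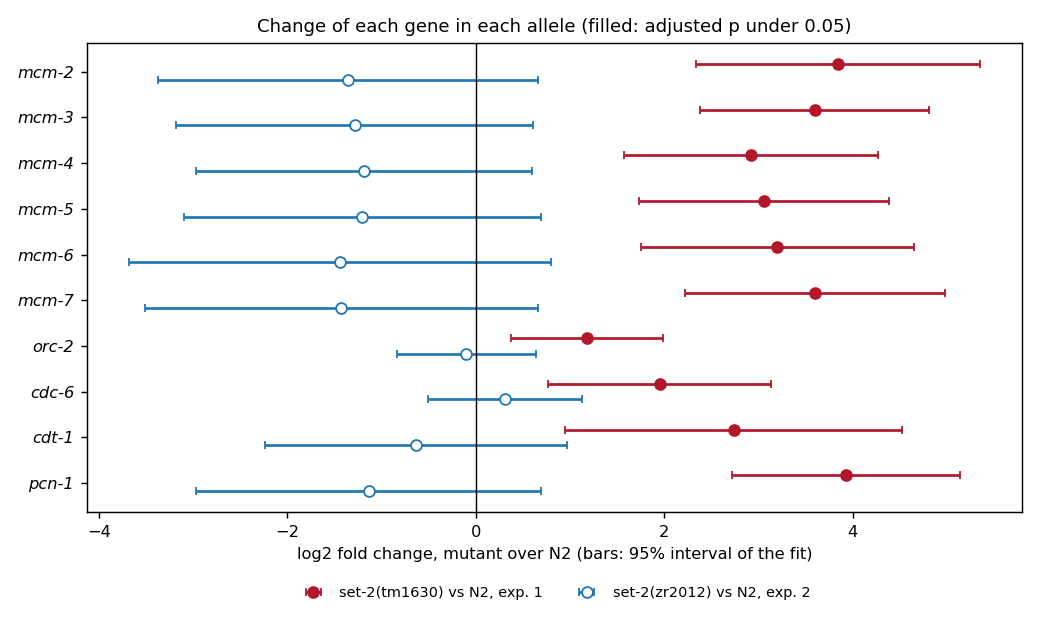
Log2 fold change of each gene over N2 of its own experiment, with the 95% interval of the edgeR fit over 6 libraries; set-2(tm1630) is drawn above set-2(zr2012) in each row. All 10 points of set-2(tm1630) are filled (adjusted p under 0.05) and lie between 1.18 and 3.93, while all 10 intervals of set-2(zr2012) include 0.

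Without N2 replicate 3, the sign turned for 9 of the 10 genes. The log2 fold changes in libraries labelled set-2(zr2012) were then 0.43 for mcm-2, 0.33 for mcm-3, 0.32 for mcm-4, 0.43 for mcm-5, 0.63 for mcm-6 and 0.45 for mcm-7, and they were 0.35 for orc-2, 0.67 for cdt-1 and 0.42 for pcn-1. cdc-6 kept its sign at 0.83. In this fit 8 of 8 symbol rows passed upward, with the largest adjusted p at 0.0239 for mcm-3 (edgeR), and 30.7% of the 16555 genes tested were called higher. All 3 mutant libraries lay above both remaining N2 libraries for each of the 10 genes, as for 37.3% of genes tested. The mutant mean was 1.24 times (mcm-4) to 1.78 times (cdc-6) the mean of N2 replicates 1 and 2. In the other 5 fits with a library left out, 0 of 8 passed. Those fits called only 29 to 154 of the 16571 to 16686 genes tested, in either direction.

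**Figure D3:**
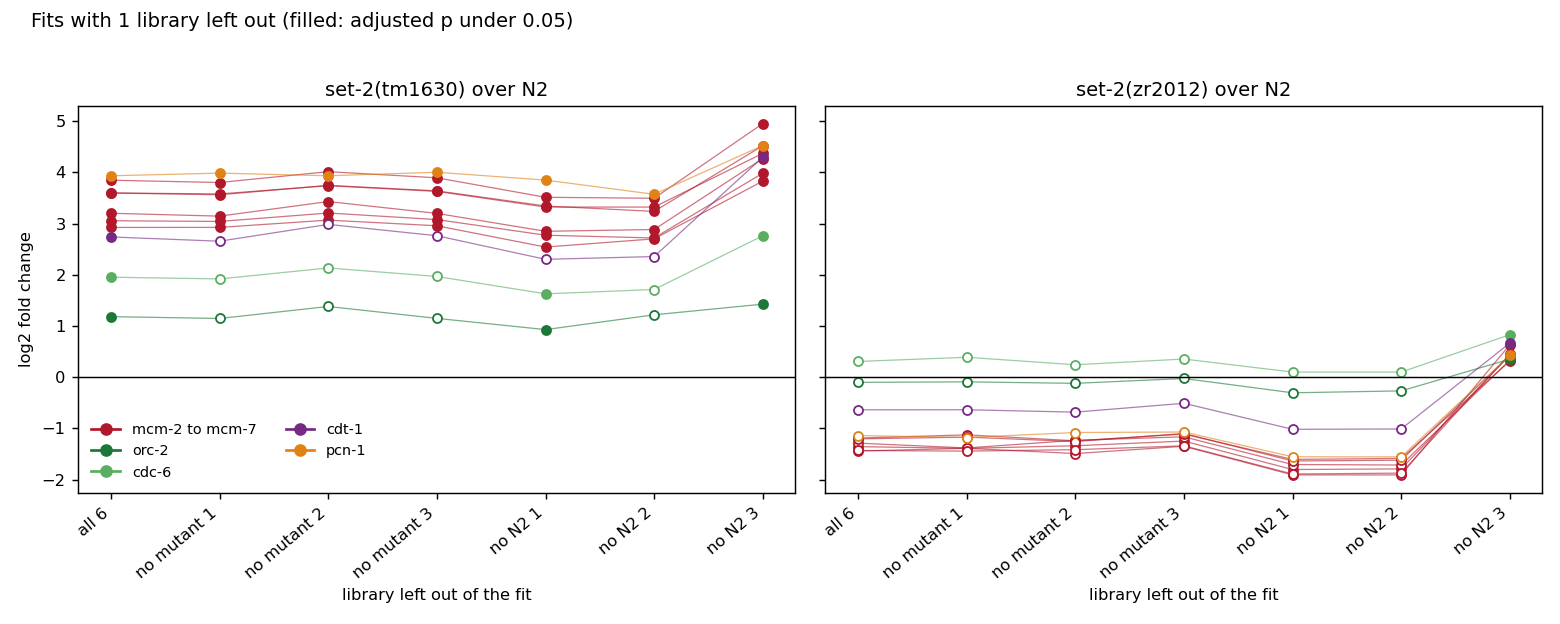
Log2 fold change of each gene with all 6 libraries and with each library left out, mutant libraries first, for each allele; filled points have an adjusted p under 0.05. The set-2(tm1630) points stay above 0 in all fits, and the set-2(zr2012) points are all above 0 and filled only in the fit without N2 replicate 3.

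The difference between the alleles was tested over all 12 libraries as the change in set-2(zr2012) minus the change in set-2(tm1630), each against its own N2. The difference was negative for all 10 genes and passed the test for 6 of 8 symbol rows and 8 of 10 with the transcript rows, against 11.8% of 17903 genes called in that direction. The log2 difference was -5.19 for mcm-2, -4.87 for mcm-3, -4.1 for mcm-4, -4.25 for mcm-5, -4.62 for mcm-6 and -5.01 for mcm-7. It was -5.06 for pcn-1 (adjusted p = 0.00507, edgeR) and -3.36 for cdt-1 (adjusted p = 0.0430). The differences of orc-2, -1.29 (95% interval -2.31 to -0.26, adjusted p = 0.0665, edgeR), and cdc-6, -1.64 (-3.05 to -0.24, adjusted p = 0.0825), did not pass.

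The size of this difference depended on N2 replicate 3 of each experiment. Without that of experiment 2 the log2 difference was -3.28 for mcm-3, -3.17 for mcm-7 and -3.53 for pcn-1, and 5 of 8 symbol rows passed, against 10.4% of all genes tested called in that direction, cdt-1 no longer among them (adjusted p = 0.130, edgeR). Without that of experiment 1, 8 of 8 passed, against 19.9% of all genes. Without replicate 3 of both N2 groups, a setting chosen after seeing the data, 8 of 8 passed as well, against 21.1% of all genes, with -1.12 for orc-2 (adjusted p = 0.0214) and -1.97 for cdc-6 (adjusted p = 0.000428). cdt-1 passed in 3 of the 12 fits that left out 1 library each.

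Scaled over all 12 libraries, the summed level of the 10 genes was 2269 to 2772 CPM in libraries labelled set-2(tm1630) and 257 to 300.1 CPM in those labelled set-2(zr2012). N2 replicate 3 stood between these groups in both experiments, with 1238 CPM in experiment 2 and 535 CPM in experiment 1. The lowest sums were those of the other N2 libraries, 204 and 214 CPM in experiment 2 and 157 and 173 CPM in experiment 1. Libraries labelled set-2(zr2012) thus lay nearer to N2 replicates 1 and 2 of their experiment than to replicate 3.

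The 10 genes moved together over the libraries. Pairwise Pearson correlations of log2 CPM over the 12 libraries were 0.9 to 0.998, with a median of 0.972 over 45 pairs. The points share library, depth and experiment. The level of mcm-5 spanned 18.3-fold over the libraries, and the ratio of mcm-7 to mcm-5 spanned only 1.62-fold. This ratio spanned 1.69-fold for mcm-6, 2.00-fold for mcm-4, 2.13-fold for mcm-3 and 2.15-fold for mcm-2, against a median of 31.3-fold for all genes with a mean of at least 100 counts. It spanned 2.60-fold for cdt-1, 2.62-fold for pcn-1, 4.51-fold for cdc-6 and 8.71-fold for orc-2. orc-2 was the steadiest of the 10 genes, with a range of 4.16-fold in its level, near the 4.48-fold median of all these genes.

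Of 11698 genes, those whose log2 CPM followed the mean of the 10 genes most closely over the 12 libraries were B0393.3 (Pearson 0.996), T09B4.1 (0.996), ify-1 (0.995), capg-2 (0.995) and xpo-2 (0.994). ify-1 encodes securin, which holds back separase until anaphase, capg-2 a subunit of condensin, which compacts chromosomes, and xpo-2 an exportin.

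Other genes of DNA replication were read from lists of the pathway. Of 55 tested, 41 were called higher and 0 lower in libraries labelled set-2(tm1630), against 14.4% and 16% of all genes tested. Their median log2 fold change was 1.83, with 53 positive and 2 negative. Without N2 replicate 3, 49 were called higher and 1, dtmk-1, lower, against 3703 higher and 4154 lower of all 15776 genes tested. Among other initiation genes 10 of 12 were called higher, and 12 of 12 had a positive log2 fold change. The largest change was that of sld-2, needed to activate the helicase, with 79.9, 70.7 and 68.7 CPM in mutant libraries and 7.55, 5.20 and 11.12 CPM in N2 (log2 3.20 ± 0.36, adjusted p = 0.00318, edgeR). The smallest was that of sld-5, a subunit of the GINS complex of the helicase, at 0.96 ± 0.35, which did not pass (adjusted p = 0.0656).

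At the replication fork 16 of 20 genes were called higher, and 20 of 20 had a positive log2 fold change. rfc-3, a subunit of the clamp loader that places PCN-1 on DNA, had 171, 169.9 and 176 CPM in libraries labelled set-2(tm1630) and 19.7, 15.1 and 42.2 CPM in N2 (log2 2.75 ± 0.43, adjusted p = 0.00628, edgeR). ctf-18, of an alternative clamp loader, had the smallest value of the list, 0.70 ± 0.53 (adjusted p = 0.329). Of the genes for deoxynucleotide supply 5 of 6 were called higher. dut-1, the dUTPase that keeps uracil out of DNA, had 316, 327 and 297 CPM in mutant libraries and 9.75, 7.90 and 18.9 CPM in N2 (log2 4.68 ± 0.44, adjusted p = 0.00228, edgeR). In the fit of all 6 libraries dut-1 had the largest change of any replication gene listed, above that of pcn-1. dtmk-1, the row R53.2 for a thymidylate kinase, had -0.64 ± 0.58 and did not pass (adjusted p = 0.417).

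Of the genes that control licensing or take the helicase off chromatin, 7 of 13 were called higher, and 13 of 13 had a positive log2 fold change. lrr-1, a substrate receptor of a CUL-2 ubiquitin ligase that acts in helicase removal, had 98.3, 70.3 and 90.7 CPM in libraries labelled set-2(tm1630) and 10.16, 12.1 and 23.8 CPM in N2 (log2 2.49 ± 0.40, adjusted p = 0.00651, edgeR). ubxn-3, a cofactor of the CDC-48 unfoldase, had a value of 0.01 ± 0.41 (adjusted p = 0.992). Of E2F and Rb genes, whose products control S-phase transcription, 3 of 4 were called higher. lin-35, the Rb homologue, was at 1.81 ± 0.56 (adjusted p = 0.0420, edgeR) and efl-2 at -0.20 ± 0.48 (adjusted p = 0.774). The paralogs cdc-48.1 and cdc-48.2, and npl-4.1 and npl-4.2, are near copies in this list whose reads may have been split between them. orc-5 and dna-2 held no counts in any library. 6 of the listed genes were read from RefSeq transcript rows: sld-5, pri-1, pri-2, lig-1, ufd-1 and cul-2, the last with 6 reads in total.

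With all 6 libraries of experiment 2, 0 of the same 55 genes passed for set-2(zr2012) in either direction, and at an unadjusted p under 0.05 edgeR had 0 higher and 1 lower, orc-4 (log2 -0.60 ± 0.22, adjusted p = 0.128), which is named for that value. The DESeq2 Wald test also called 0. The list had a median log2 fold change of -0.44 against -0.08 over all genes tested. The extremes of the lists were, for initiation, orc-3, of the origin recognition complex, at -0.86 ± 0.59 and mus-101, the TopBP1 homologue, at 0.22 ± 0.34. At the fork they were pri-2, of primase, at -0.93 ± 0.75 and pole-2, of polymerase epsilon, at 0.06 ± 0.29, and for deoxynucleotides rnr-1 at -1.24 ± 0.62 and dtmk-1 at 0.14 ± 0.13. For control and removal they were lrr-1 at -0.77 ± 0.43 and ddb-1, of CUL-4 ubiquitin ligases, at 0.28 ± 0.18, and for E2F and Rb dpl-1, the DP partner of E2F, at -0.83 ± 0.35 and efl-2 at 0.88 ± 0.43. rnr-1, the large subunit of ribonucleotide reductase, had 34.96, 30.8 and 27.7 CPM in mutant libraries and 31.6, 35.6 and 154 CPM in N2, so that N2 replicate 3 stood apart as for the licensing genes.

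Without N2 replicate 3, a setting applied to the lists after seeing the data, 31 of the 55 genes were called higher and 3 lower in libraries labelled set-2(zr2012), against 30.7% and 32.5% of all genes tested (edgeR). The median log2 fold change was then 0.29, against -0.00412 over all genes. Called higher were 8 of 12 initiation genes, 13 of 20 at the fork, 3 of 6 for deoxynucleotides, 5 of 13 for control and removal and 2 of 4 of E2F and Rb. The highest value was that of lin-35 (log2 1.62 ± 0.09, adjusted p = 8.64e-08), and the 3 genes called lower were orc-4 (-0.35 ± 0.12), npl-4.2 (-0.40 ± 0.15) and dpl-1 (-0.31 ± 0.09). rnr-1 (-0.11 ± 0.10) and lrr-1 (-0.06 ± 0.09) did not pass.

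**Figure D4:**
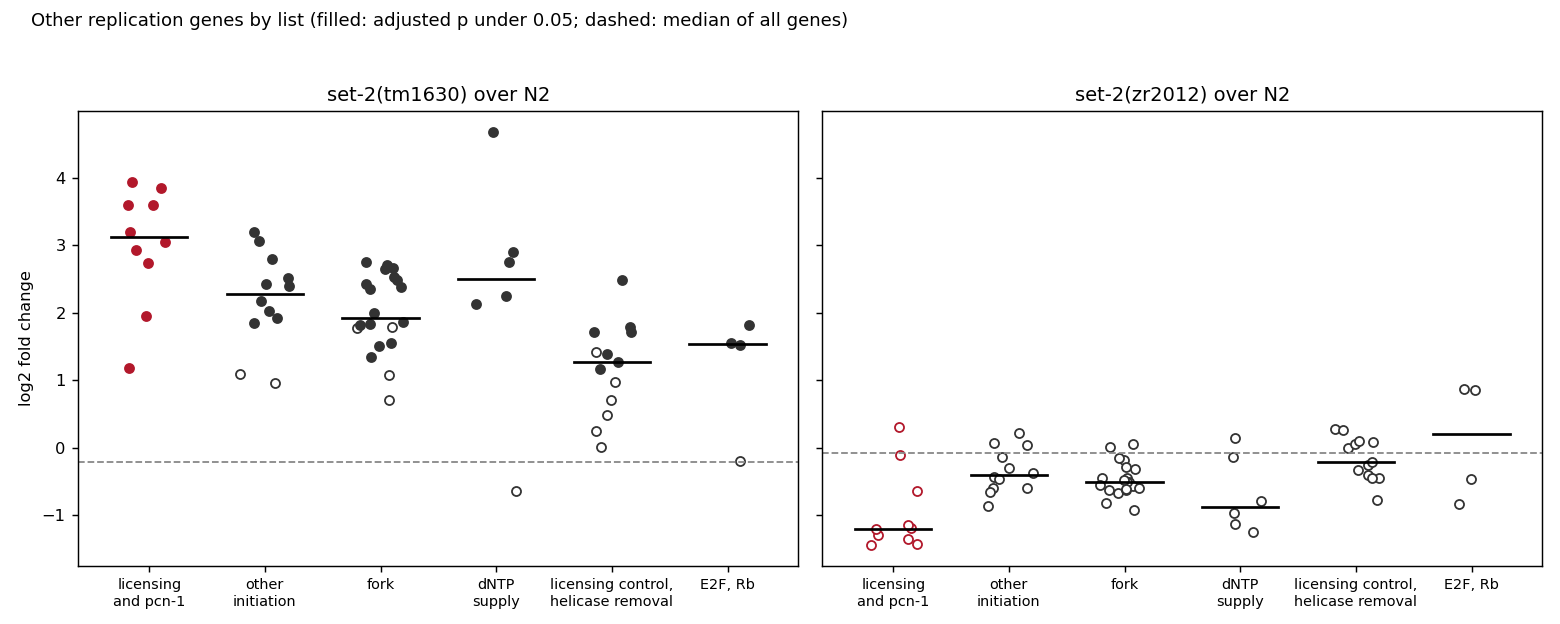
Log2 fold change of the licensing genes with pcn-1 and of 5 lists of other replication genes over N2, for each allele; points are genes, lines list medians, filled points have an adjusted p under 0.05 and the dashed line is the median of all genes tested (-0.21 and -0.08). In set-2(tm1630) 41 of the 55 other genes are filled and above 0, and in set-2(zr2012), with N2 replicate 3 in the fit, none is filled.

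Some lists of stage and tissue markers moved with these levels and others did not. Of maternal and early embryo genes, 14 of the 17 tested were called higher and 0 lower in libraries labelled set-2(tm1630), against 14.4% and 16% of all genes tested, and their summed level was 980.3 to 1256 CPM, against 43.4 to 141 CPM in N2. Of muscle markers 0 of 9 were called higher and 5 lower, and of neuron markers 0 of 9 higher and 6 lower. The summed muscle level was 2166 to 2235 CPM in mutant libraries, against 4101 to 5923 CPM in N2. The summed neuron level was 563 to 587 CPM, against 877 to 1072 CPM in N2. Such sums weigh highly expressed genes most: of the neuron sum, snb-1 alone held 386 to 417 CPM in mutant libraries and 306 to 503 CPM in N2. Its log2 fold change was 0.08 ± 0.33 and was not called. The other lists differed among themselves. Early zygotic genes summed to 37.1 to 43.3 CPM in mutant libraries and 25.5 to 48.3 CPM in N2 (5 of 8 called higher, 1 lower), and epidermis and cuticle genes to 3749 to 7090 CPM in mutant libraries and 5982 to 16819 CPM in N2 (1 of 8 higher, 1 lower), so that the groups overlapped for both sums. Intestine genes summed to 1319 to 1617 CPM in mutant libraries and 1641 to 3886 CPM in N2 (0 of 10 higher, 3 lower), without overlap. The log2 fold change was negative for 9 of these 10 genes and for 7 of the 8 epidermis and cuticle genes tested. Of the adult intestine (yolk) and sperm markers few could be tested, and 0 of 2 and 0 of 3 were called. Much of the epidermis and cuticle sum was dpy-17, with 3005 to 5733 CPM in mutant libraries and 4553 to 12516 CPM in N2. The early zygotic sum in N2 likewise rested largely on sdz-38, the gene called lower. It had 32.2, 38.5 and 10.3 CPM in N2 and 7.14, 7.95 and 8.92 CPM in mutant libraries. Of the 8 early zygotic genes tested, 7 had a positive log2 fold change, so the overlap of the sums does not describe most of the list.

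In experiment 2 the maternal and early embryo sum was 135 to 169 CPM in libraries labelled set-2(zr2012), against 114, 125 and 655 CPM in N2, the last in replicate 3. Of the markers tested in this comparison 0 of 18 maternal and early embryo genes and 0 of 9 muscle genes were called, and 1 of 9 neuron genes was called higher, against 5.71% of all genes called higher and 4.74% lower. Of the other lists, 1 of 7 early zygotic genes was called lower and 1 of 8 epidermis and cuticle genes higher. For intestine, yolk and sperm genes 0 of 10, 0 of 3 and 0 of 4 were called. Without N2 replicate 3, 7 of 18 maternal genes were called higher and 1 lower, 1 of 9 muscle genes higher and 7 lower, and 2 of 9 neuron genes higher and 5 lower, against 30.7% and 32.5% of all genes. Against the same shares, 3 of 6 early zygotic genes were called higher and 2 lower. Epidermis and cuticle genes had 5 of 7 called higher and 2 lower. For intestine, yolk and sperm genes 6 of 10, 3 of 3 and 2 of 4 were called higher and 0 lower. The muscle sum was 8523 to 10897 CPM in mutant libraries, against 12672 and 13178 CPM in N2 replicates 1 and 2 and 6041 CPM in N2 replicate 3. The neuron sum was 1476 to 1634 CPM in mutant libraries, against 1464 and 1453 CPM in N2 replicates 1 and 2 and 1151 CPM in N2 replicate 3, so that this last library was the lowest for both lists. unc-15 of the muscle list and unc-18 of the neuron list held no counts. In experiment 2 the library with the most licensing gene reads thus had the most maternal and the fewest muscle and neuron reads. In experiment 1 this held for the mutant libraries against N2, while N2 replicate 3, the highest N2 library for the licensing genes, had the lowest neuron sum and also the highest muscle sum of its group. The early zygotic sum of N2 replicate 3 in experiment 2 was also the highest of its experiment, 88.7 CPM, against 19.9 to 25.0 CPM in mutant libraries and 28.7 and 30.5 CPM in the other N2 libraries. Its epidermis sum, 10190 CPM, lay within the range of the mutant libraries, 9455 to 10984 CPM, and its intestine sum, 2061 CPM, within their 2052 to 2512 CPM. The part of embryonic stage in the changes of the licensing genes was not tested.

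**Figure D5:**
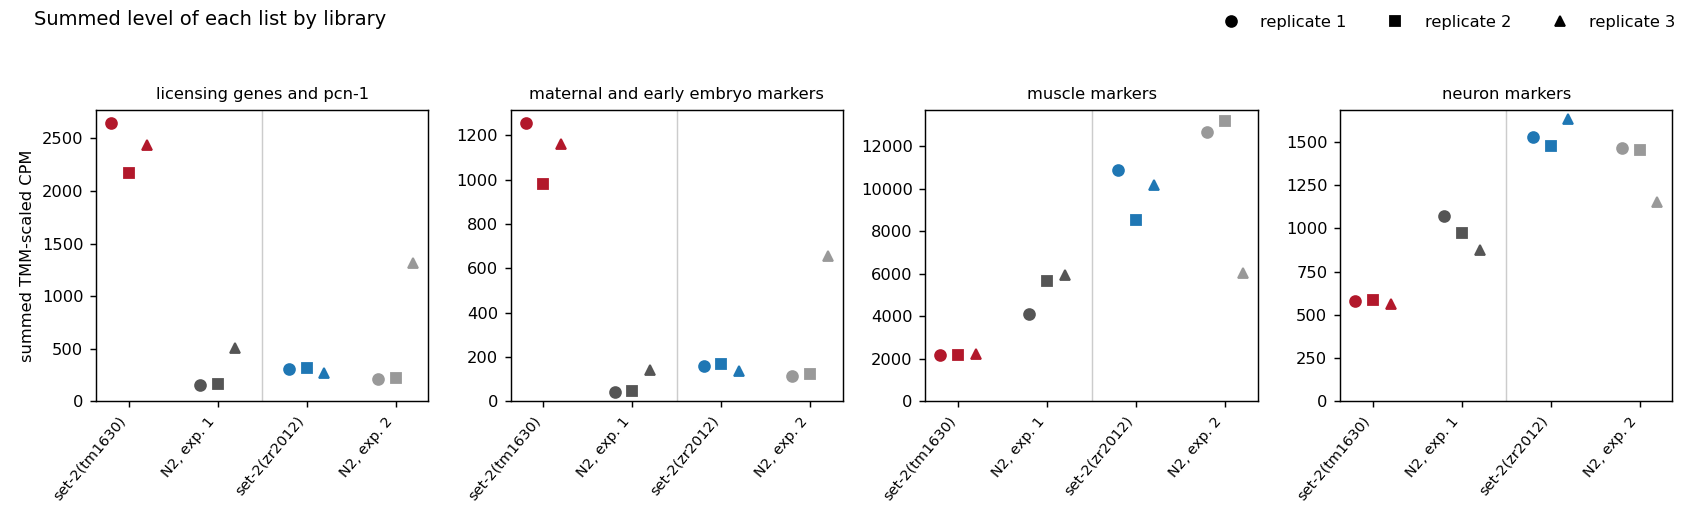
Summed TMM-scaled CPM of the 10 genes and of 3 marker lists in each library, scaled within each experiment, with replicates as symbols. In set-2(tm1630) the first 2 sums are above and the muscle and neuron sums below those of all N2 libraries of experiment 1, and in experiment 2 N2 replicate 3 (triangle) stands apart from the other 5 libraries in all 4 panels.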

How the data were processed

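RNA-seq of C. elegans mid-embryos gave 12 libraries in 4 groups. Reads were mapped by the authors to WS220 (ce10) with 2 mismatches allowed, and the submitters' processing notes name Trimmomatic 0.36.0, HTSeq 0.9.1 and DESeq2 2.1.8.3. Integer counts per gene were deposited by the authors without normalization; the strand setting is not given in the sources used here. Of 3837 rows named by a RefSeq transcript, 2863 were matched to a gene of the RefSeq table (WBcel235, names only), and in 1268 of 2781 pairs of a gene row and a transcript row only the transcript row held counts.

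Each mutant was compared with N2 of its own experiment in R 4.3.3 with edgeR 4.0.16: genes had to reach 10 counts in 3 or more libraries, followed by TMM scaling, the quasi-likelihood test, Benjamini-Hochberg adjustment and a two-sided threshold of 0.05. The labels call the 3 samples of a group replicas, from independent preparations per the study's methods. Intervals use the fit's SE and degrees of freedom. Likeness used log2(CPM + 1) and genes with a mean of at least 100 counts. Alternatives were DESeq2 1.42.0 (size factors, Wald test), 2 other filters, a replicate block, 1 fit of all 12 libraries and each library left out. The transcript rows, and leaving out N2 replicate 3 of both experiments or, for the gene lists, of the same experiment, were chosen after seeing the data. The title placed replicate 3 of set-2(tm1630), whose description names another number. Only the fitting step was tested on simulated counts with known changes, and only the sign of its calls was required to be right. The simulated counts held no library standing apart as N2 replicate 3 did.

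All 10 members are named. Of each other replication list the genes with the highest and lowest log2 fold change in each allele are named, with any called against the list's majority, and the 5 genes most alike in pattern. Members, lists and rules were chosen with earlier results of these data known.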

Additional observations from a re-analysis of the deposited data

Results flagged for a closer look

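The change in set-2(zr2012) differed from that in set-2(tm1630) by the test of the difference itself over 12 libraries for 8 of the 10 genes. The log2 differences, zr2012 minus tm1630, were -5.19 for mcm-2 (adjusted p = 0.00860, edgeR quasi-likelihood), -4.87 for mcm-3 (0.00669), -4.1 for mcm-4 (0.0135), -4.25 for mcm-5 (0.0130), -4.62 for mcm-6 (0.0168), -5.01 for mcm-7 (0.00928), -3.36 for cdt-1 (0.0430) and -5.06 for pcn-1 (0.00507). Replicate 3 of N2 in experiment 2 had 5.37 times (cdt-1) to 10.6 times (mcm-6) the mean of N2 replicates 1 and 2 for these genes, and its part in the difference is shown by the values without it, which were -3.43 for mcm-2, -2.63 for mcm-4, -2.65 for mcm-5, -2.59 for mcm-6 and -2.09 for cdt-1. cdt-1 then no longer passed. The alleles were measured in separate experiments, so allele and experiment cannot be told apart beyond each comparison with its own N2.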

How the results depend on the processing

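Members called among the 8 symbol rows ranged from 5 to 8 for set-2(tm1630), from 0 to 8 for set-2(zr2012) and from 5 to 8 for the difference with a library left out. Counts over all genes ranged from 747 to 7857 for set-2(tm1630) (4961 in the full fit), from 29 to 10468 for set-2(zr2012) (1765) and from 2357 to 7293 for the difference (4198 in the full fit), and 7712 without replicate 3 of both N2 groups. With each library left out, log2 changes in set-2(zr2012) ranged from -1.80 to 0.43 for mcm-2, -1.71 to 0.33 for mcm-3, -1.60 to 0.32 for mcm-4, -1.63 to 0.43 for mcm-5, -1.91 to 0.63 for mcm-6, -1.89 to 0.45 for mcm-7, -0.30 to 0.35 for orc-2, -1.02 to 0.67 for cdt-1 and -1.55 to 0.42 for pcn-1, each positive only without N2 replicate 3. With all 12 libraries in 1 fit 8124 genes were called in set-2(tm1630) and 248 in set-2(zr2012), 71.4% of these higher against 54.7%, and the DESeq2 Wald test called 3252 in set-2(zr2012); the cause was not tested. Deviations of log2 CPM from the group mean were correlated between same-numbered mutant and N2 samples over all genes tested. The values were -0.381, -0.0888 and -0.0836 in experiment 1 and 0.146, -0.375 and -0.340 in experiment 2. They gave no sign that the numbers pair the samples, though deviations within a group of 3 libraries are not independent. With the replicate block 7 of 8 members were called in set-2(tm1630), orc-2 lost (adjusted p = 0.0668), 0 in set-2(zr2012) and 5 for the difference, cdt-1 lost (0.0559). Over all genes the block called 40 in set-2(zr2012), 100% of them higher, and 1858 for the difference, and 58.3% of the calls in set-2(tm1630) were higher, against 47.4% without it. Without a count filter orc-2 was not called in set-2(tm1630) (adjusted p = 0.0584). The members' directions in set-2(tm1630) held in all settings run. For the difference the DESeq2 Wald test gave no adjusted p for mcm-4 and pcn-1 and called orc-2 (0.0395) and cdc-6 (0.0483), so that its 6 calls are not the same genes. Depth limits the row of mcm-6 most, with 58 reads in its lowest library, and reads are not independent molecules.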
